A study of Mus musculus with 30 samples.

Results

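Retinas of mouse pups injected at postnatal day 5 (P5) with endothelial colony-forming cells (ECFC) were compared with retinas of pups injected at P5 with CD34+ cells. The samples were chosen by their labels alone: 3 retinas labelled P5-ECFC and 3 labelled P5-CD34, 6 of the 30 in the series. All 6 pups were in the oxygen-induced retinopathy (OIR) model, in which pups breathe 75% oxygen from P7 for 5 days and the young retinal capillaries regress. The injections went into the vitreous before the oxygen. ECFC eyes received 100000 cells and CD34+ eyes 10000, so cell type and cell number cannot be told apart here. The protocol gives 1 retina per pup. The labels put every retina at P17, while the text on the study's design pairs injection at P5 with collection at P12. Neither the strain of the pups nor the species of the injected cells is given in the sources used here. Groups set beside these were also in the OIR model, 3 retinas each: saline at P5, both cell types together at P5 (110000 cells), and each cell type at P12. The series asked whether the progenitors, alone or together, change how retinal vessels develop.

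ECFC are cultured cells of endothelial lineage that can line vessels, and CD34+ cells are blood-forming progenitors that act on vessels largely through what they release. The retina has rods and cones at its outer side, bipolar, horizontal and amacrine cells between, and ganglion cells at its inner side, whose axons form the optic nerve. Behind the rods and cones lies the pigment epithelium, which makes melanin and recycles the visual pigment. Lens and pigment epithelium touch or lie near the retina, and a dissection can carry their RNA along. In RNA from a whole retina, fewer cells of a type and less RNA per cell cannot be told apart.

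Values are log2 expression values of 1 probe set per gene, and a difference of 1 is a 2-fold change. In limma's fit over all 30 arrays, 877 of 12393 genes passed an adjusted p of 0.05, or 7.08%. Of these, 531 genes (4.28%) were higher with ECFC and 346 (2.79%) were lower. That count rests on the spread of all 10 groups. With the 6 arrays alone 3 genes (0.0242%) passed, Dct, Tyr and S100a6. With the 12 arrays of the P5 groups 4 (0.0323%) passed, Chrnb2, Ezr, Fkbp9 and Synpo. These are named after their values were seen. The median standard deviation (SD) of a gene within a group was 0.188 for CD34+ cells and 0.157 for ECFC, against 0.102 to 0.167 in the other 8 groups. CD34+ replicate 1 stood apart, with a correlation of 0.959 to 0.972 to the other CD34+ arrays, whereas ECFC arrays correlated at 0.983 to 0.994. Without that array 533 genes (4.3%) passed, 181 higher and 352 lower, and 387 of them were among the 877. Without ECFC replicate 3, the ECFC array farthest from its group, 849 (6.85%) passed, 531 (4.28%) higher and 318 (2.57%) lower. Every count of passing genes below comes from the 30-array fit unless another is named. The rods checked the tissue label: the mean of 17 rod genes was 12.89 to 13.18 on the 6 arrays. Xist was high on 2 of 3 CD34+ arrays and 1 of 3 ECFC arrays, so pup sex was not balanced. CD34+ replicate 1 was the CD34+ array with low Xist (4.62). The mean of its hybridisation control probe sets, 11.86, was the lowest of the 30 arrays, with P5 saline replicate 2 next at 11.92. Whether either bears on its distance from its group was not tested.

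**Figure D1:**
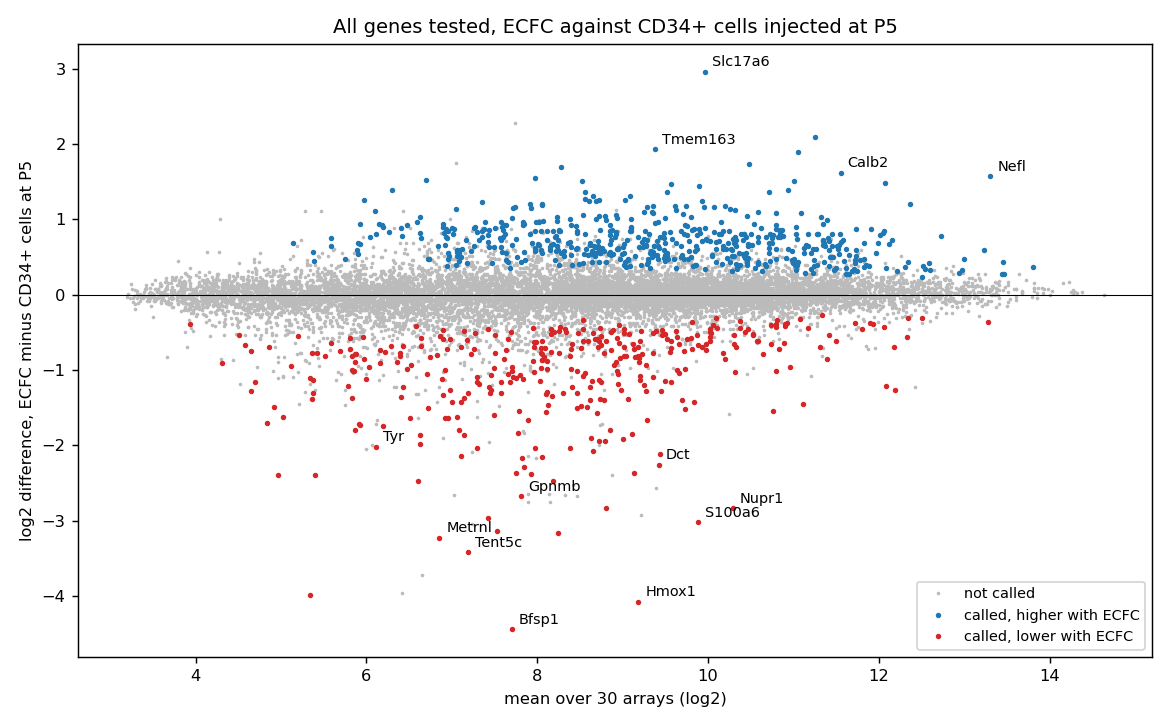
Each point is 1 of 12393 genes, with its mean over 30 arrays on the x axis (log2) and the ECFC minus CD34+ difference at P5 on the y axis (log2). Blue points are the 531 genes that passed as higher with ECFC and red points the 346 that passed as lower. The lower side reaches -4.44 and the higher side 2.96.

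Genes of retinal ganglion cells were higher with ECFC than with CD34+ cells. Of 16 measured genes, 12 passed as higher and 0 as lower, against 4.28% and 2.79% of all genes, and the median difference was 1.15 against 0 over all genes. All 16 differences were positive, from 0.50 to 2.96. In 11 genes all 3 ECFC arrays lay above all 3 CD34+ arrays, an order that 9.93% of all genes had, while 6.75% had the reverse order. The mean of the list was 10.04, 9.75 and 9.86 on ECFC replicates 1 to 3, and 7.87, 9.65 and 8.35 on the CD34+ arrays. Every CD34+ array lay below every ECFC array, but replicate 2 by little, so the difference was carried by replicates 1 and 3. Without CD34+ replicate 1, 5 of 16 passed as higher, against 1.46% of all genes, with a median of 0.87.

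Slc17a6, the vesicular glutamate transporter of ganglion cells, had the largest positive difference among the genes that passed. Its values were 10.56, 10.05 and 10.22 with ECFC and 5.49, 9.76 and 6.71 with CD34+ cells. The difference was 2.96 ± 0.59 (standard error, SE; 7.77-fold, adjusted p = 0.0043). CD34+ replicates 1 and 3 were far below the ECFC arrays, and replicate 2 was just below them. Nefl, the light neurofilament chain of long axons, was 13.31, 13.30 and 13.52 with ECFC and 10.33, 13.22 and 11.85 with CD34+ cells. The groups did not overlap, and the difference was 1.57 ± 0.36 (2.98-fold, adjusted p = 0.0089). Gap43, a protein of growing axons, was 10.71, 10.42 and 10.45 with ECFC and 8.95, 9.88 and 9.23 with CD34+ cells, a difference of 1.18 ± 0.24 (adjusted p = 0.0044). Stmn2, a microtubule regulator of neurons, differed by 1.36 ± 0.28 and Ebf1, a transcription factor, by 1.27 ± 0.27. In all of these genes CD34+ replicate 2 was the CD34+ array nearest to ECFC.

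Amacrine and bipolar cell genes followed with smaller differences. Of 11 amacrine genes 6 passed as higher and 0 as lower, against 4.28% and 2.79% of all genes, with a median of 0.60. Without CD34+ replicate 1 only 1 passed as higher, against 1.46% of all genes, with a median of 0.43. Calb2, the calcium binder calretinin of amacrine and ganglion cells, was 11.98, 11.73 and 11.84 with ECFC and 8.91, 11.69 and 10.10 with CD34+ cells. Its difference was 1.62 ± 0.38 (3.06-fold, adjusted p = 0.010), with CD34+ replicate 2 almost at the ECFC level. Tfap2b, a transcription factor of amacrine cells, was 10.46, 10.33 and 10.31 against 9.62, 9.77 and 9.87. Here the 3 CD34+ arrays lay close together, and the difference was 0.61 ± 0.12 (adjusted p = 0.0043). Slc32a1, the vesicular transporter of GABA and glycine, differed by 0.56 ± 0.14, and Gjd2, a gap junction protein of neurons, by 0.61 ± 0.15.

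Of 11 bipolar genes 7 passed as higher and 1 as lower, against 4.28% and 2.79% of all genes, with a median of 0.58. Without CD34+ replicate 1 there were 3 and 1, against 1.46% and 2.84% of all genes, with a median of 0.33. Prkca, the kinase that marks rod bipolar cells, was 11.34, 11.42 and 11.45 with ECFC and 10.78, 10.94 and 11 with CD34+ cells. The arrays of each group lay within a narrow range, and the difference was 0.50 ± 0.10 (adjusted p = 0.0050). Vsx1, a transcription factor of cone bipolar cells, differed by 1.17 ± 0.26, Cabp5, a calcium binder, by 0.70 ± 0.16, and Pcp2, a G protein regulator, by 0.68 ± 0.15. Trpm1, named after its value was seen, went the other way. It codes the channel of ON bipolar cells and is also transcribed in pigment cells. Its values were 7.24, 7.28 and 7.29 with ECFC and 8.07, 9.36 and 8.65 with CD34+ cells, a difference of -1.42 ± 0.35 (adjusted p = 0.013).

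Of 18 synapse genes 9 passed as higher with ECFC and 0 as lower, against 4.28% and 2.79% of all genes, with a median of 0.42. Without CD34+ replicate 1, 5 passed as higher, against 1.46% of all genes. Syn1, a protein that tethers synaptic vesicles, was 11.47, 11.35 and 11.53 with ECFC and 10.18, 11.19 and 10.54 with CD34+ cells, a difference of 0.81 ± 0.17. Syn2 of the same family differed by 1.02 ± 0.22, and the AMPA receptor subunits Gria2 and Gria4 by 0.78 ± 0.18 and 0.64 ± 0.15. Other large positive differences were those of Tmem163, a zinc transporter (1.93 ± 0.44), Kcnd2, a potassium channel (1.69 ± 0.31), Htr1b, a serotonin receptor (1.51 ± 0.29), Hapln1, a link protein of the matrix around neurons (1.52 ± 0.36), and Cyp2s1, a cytochrome (1.55 ± 0.31). None of the neuronal or synaptic genes named passed with the 6 arrays alone.

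Rod, cone and horizontal cell genes did not show these differences. Of 17 rod genes 0 passed and of 12 cone genes 0 passed, with medians of 0.05 and -0.07. The rod differences ran from -0.16 to 0.15. Pde6b, a subunit of the rod phosphodiesterase, differed by 0.11 ± 0.09 (adjusted p = 0.61), and Arr3, cone arrestin, by -0.20 ± 0.15 (adjusted p = 0.60). Of 7 horizontal cell genes 0 passed, with a median of 0.09.

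**Figure D2:**
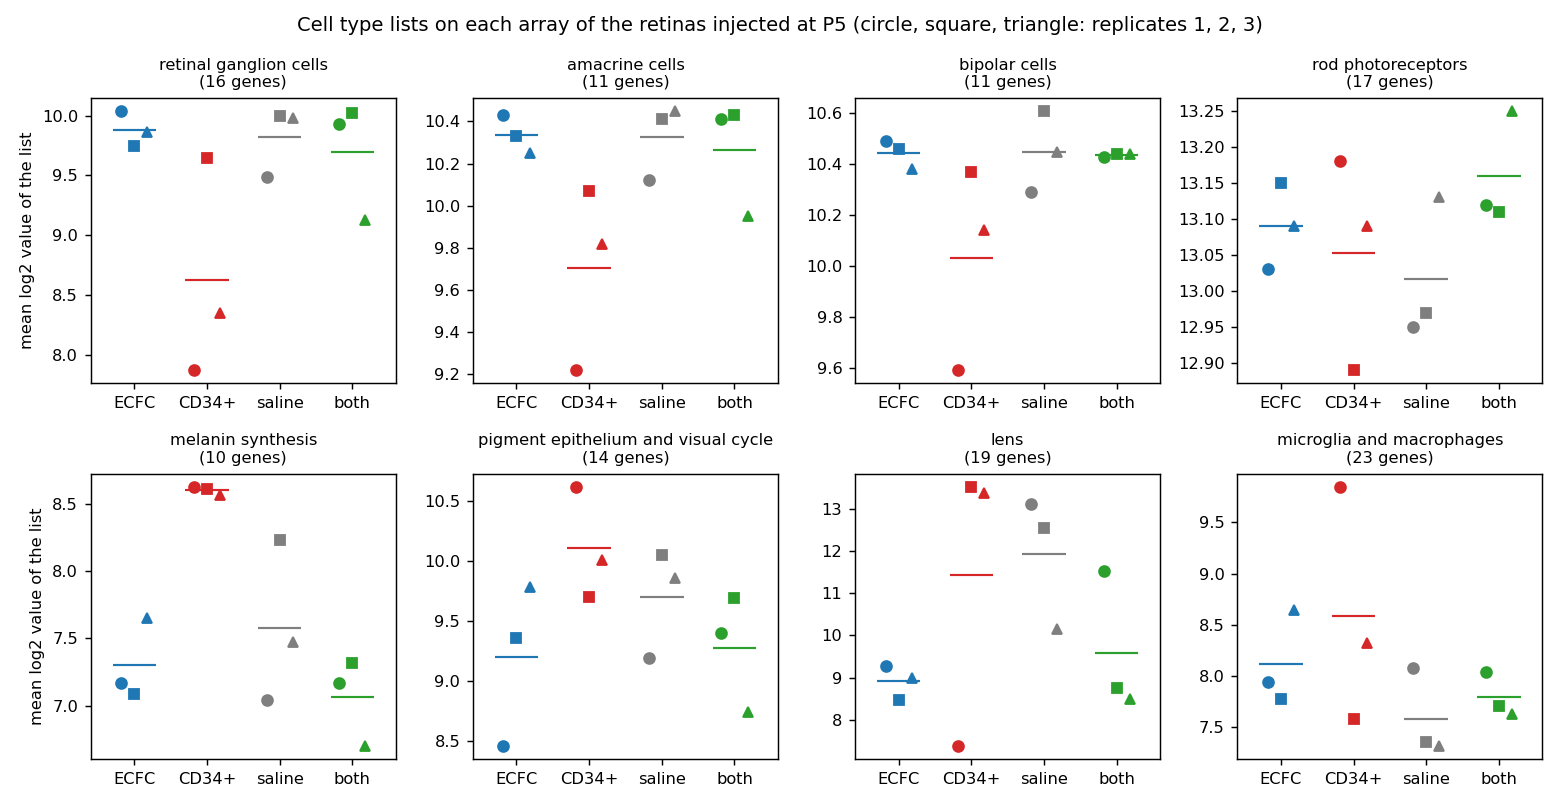
Each panel gives the mean log2 value of a gene list on every array of the retinas injected at P5, by treatment, with the group mean as a line; "both" is the combination, and each panel has its own y range. The 3 CD34+ arrays lie below the 3 ECFC arrays in the ganglion, amacrine and bipolar panels and above them in the melanin panel, while in the lens panel CD34+ replicate 1 (7.38) lies far from replicates 2 and 3 (13.52 and 13.37).

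Melanin genes were lower with ECFC, and the CD34+ arrays lay close together. Of 10 measured genes 7 passed as lower and 0 as higher, against 2.79% and 4.28% of all genes, with a median of -1.18. The list mean was 8.63, 8.61 and 8.57 on the CD34+ arrays and 7.17, 7.09 and 7.65 on the ECFC arrays. The groups were far apart on this scale, and without CD34+ replicate 1 the median was -0.99 with 6 genes passing. In 7 genes all 3 ECFC arrays lay below all 3 CD34+ arrays, against 6.75% of all genes. With the 6 arrays alone 2 of the 10 still passed, Tyr and Dct. The saline arrays ranged widely, at 7.04, 8.23 and 7.47.

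The start sites of 3 of these genes are shown because their promoters share the core of the M-box, TCATGTG, a motif known to be bound by MITF, the main transcription factor of pigment cells. Each sequence is the 200 bases before the RefSeq start on GRCm38.p6, read 5′ to 3′ on the gene's strand, with the motif in capitals. Tyr lies at chr7:87493513-87493712 on the minus strand, Tyrp1 at chr4:80834013-80834212 on the plus strand, and Dct at chr14:118052247-118052446 on the minus strand.
Tyr: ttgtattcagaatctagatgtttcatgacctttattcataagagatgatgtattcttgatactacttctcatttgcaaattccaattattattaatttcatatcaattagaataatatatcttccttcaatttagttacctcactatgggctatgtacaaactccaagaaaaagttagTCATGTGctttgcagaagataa
Tyrp1: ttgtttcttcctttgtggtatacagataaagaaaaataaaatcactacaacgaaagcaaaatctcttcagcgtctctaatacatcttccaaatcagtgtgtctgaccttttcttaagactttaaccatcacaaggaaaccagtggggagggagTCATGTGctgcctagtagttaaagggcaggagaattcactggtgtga
Dct: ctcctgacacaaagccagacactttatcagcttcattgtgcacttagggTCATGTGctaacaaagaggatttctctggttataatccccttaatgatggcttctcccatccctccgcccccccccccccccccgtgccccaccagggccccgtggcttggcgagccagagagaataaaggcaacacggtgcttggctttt
The motif was searched as TCATGTG and its reverse complement CACATGA. It was found in 4 of the 6 melanin genes in the promoter table (Tyr, Tyrp1, Dct and Mc1r) and in 844 of 32851 promoters of the same length, or 2.57%. Mc1r, the receptor for the pigment hormone, holds the motif but did not pass, with a difference of 0.06 ± 0.19 (adjusted p = 0.95), so a match did not go with a difference in every gene. Oca2, another melanin gene, had 0 matches and passed as lower with ECFC.

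Tyr, tyrosinase, the first enzyme of melanin synthesis, was 6.36, 6.52 and 6.59 with ECFC and 8.53, 8.5 and 8.49 with CD34+ cells. Replicates differed far less than the groups, and the difference was -2.02 ± 0.35 (4.05-fold higher with CD34+ cells, adjusted p = 0.0021). Dct, a later enzyme of the same path, was 9.71, 9.88 and 10.21 against 12.25, 12.28 and 12.05, a difference of -2.26 ± 0.43 (adjusted p = 0.0035). Tyrp1, its sister enzyme, was 8.10, 7.77 and 9.15 against 10.23, 11.16 and 10.51, a difference of -2.29 ± 0.55 (adjusted p = 0.011). Pmel, which forms the fibrils on which melanin is laid, differed by -2.17 ± 0.46, and Gpr143, a receptor of the pigment granule, by -1.30 ± 0.27. Mitf itself was 8.21, 8 and 8.42 with ECFC and 8.75, 9.16 and 8.86 with CD34+ cells. The groups did not overlap, and the difference was -0.71 ± 0.18 (adjusted p = 0.016).

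Of 14 genes of the pigment epithelium and visual cycle 4 passed as lower and 0 as higher, against 2.79% and 4.28% of all genes. The list median was -0.97. Only 2 passed without CD34+ replicate 1, and without ECFC replicate 3, 9 passed with a median of -1.21. Slc16a8, the lactate transporter of that epithelium, was 7.60, 8.32 and 8.89 with ECFC and 10.03, 9.18 and 9.50 with CD34+ cells, a difference of -1.30 ± 0.23 (adjusted p = 0.0024). Rdh5, a retinol dehydrogenase, differed by -1.84 ± 0.46 (adjusted p = 0.015). Rpe65, the isomerase of the visual cycle, was 5.24, 8.48 and 9.35 with ECFC and 10.53, 9.15 and 9.90 with CD34+ cells. The groups overlapped because ECFC replicate 1 was far below the others, and the difference of -2.17 ± 0.75 did not pass (adjusted p = 0.085). With the melanin mean as a covariate, chosen after seeing the data, 1 of 12393 genes (0.00807%) passed in the whole comparison, Dnajb2. The melanin mean did not overlap between the groups, so this covariate varies with the comparison itself. With it the median difference was 1.68 for ganglion cell, 0.66 for amacrine and 0.58 for bipolar genes. It was -0.03 for genes of the pigment epithelium and visual cycle and -1.74 for lens genes. How far pigmented tissue in the dissected sample accounts for other differences was not tested.

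Lens genes had the largest median difference of all lists, -2.65. Only 2 of 19 passed as lower and 0 as higher, against 2.79% and 4.28% of all genes. The list mean was 9.27, 8.47 and 9 with ECFC, 7.38, 13.52 and 13.37 with CD34+ cells, and 13.10, 12.53 and 10.15 with saline. CD34+ replicates 2 and 3 were thus high and replicate 1 lower than any ECFC array. Bfsp1, a lens fibre filament protein, was 7.13, 6.90 and 6.92 with ECFC and 6.45, 14.01 and 13.80 with CD34+ cells, a difference of -4.44 ± 1.32 (adjusted p = 0.041) between groups that overlapped. Dnase2b, the nuclease that clears lens fibre nuclei, differed by -3.99 ± 1.05 (adjusted p = 0.020). Cryaa, the lens crystallin fixed for naming, was 7.17, 14.20 and 14.16 with CD34+ cells and its difference of -1.26 ± 1.31 did not pass. Without CD34+ replicate 1, 17 of 19 lens genes passed as lower, against 2.84% of all genes, with a median of -4.69, and without ECFC replicate 3, 1 of 19 passed. Of 11 genes of cornea and conjunctiva 0 passed, and 6 passed as lower without CD34+ replicate 1.

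In several of the largest negative differences CD34+ replicate 1 was well below the other CD34+ arrays, as in the lens genes. Hmox1, heme oxygenase, which breaks down heme under oxidative stress, was 7.75, 7.18 and 7.61 with ECFC and 9.90, 12.78 and 12.10 with CD34+ cells. The groups did not overlap, and the difference was -4.08 ± 0.99 (16.9-fold higher with CD34+ cells, adjusted p = 0.012). Saline arrays ran from 7.94 to 12.66 for this gene, across both cell groups. Tent5c, a poly(A) polymerase, differed by -3.42 ± 0.62, Metrnl, a secreted factor, by -3.23 ± 0.47, and B3gnt5, a glycolipid enzyme, by -3.14 ± 0.62. S100a4, a small calcium binder, differed by -3.16 ± 0.54, Ogn, a matrix proteoglycan, by -2.96 ± 0.58, and Nupr1, a stress-induced nuclear protein, by -2.84 ± 0.66. With the lens mean as a covariate 1214 genes passed in the whole comparison, against 877. Of the 175 named genes 9 lost their call in that fit, 21 gained one and 1 reversed. How far lens tissue accounts for these differences was not tested.

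S100a6, another calcium binder of that family, was 8.96, 9.16 and 9.38 with ECFC and 11.97, 12.45 and 12.15 with CD34+ cells, a difference of -3.02 ± 0.58 (8.14-fold higher with CD34+ cells, adjusted p = 0.0038). CD34+ replicate 1 was the lowest CD34+ array here too, but the CD34+ values spanned a narrow range, and the gene also passed with the 6 arrays alone (adjusted p = 0.0051).

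**Figure D3:**
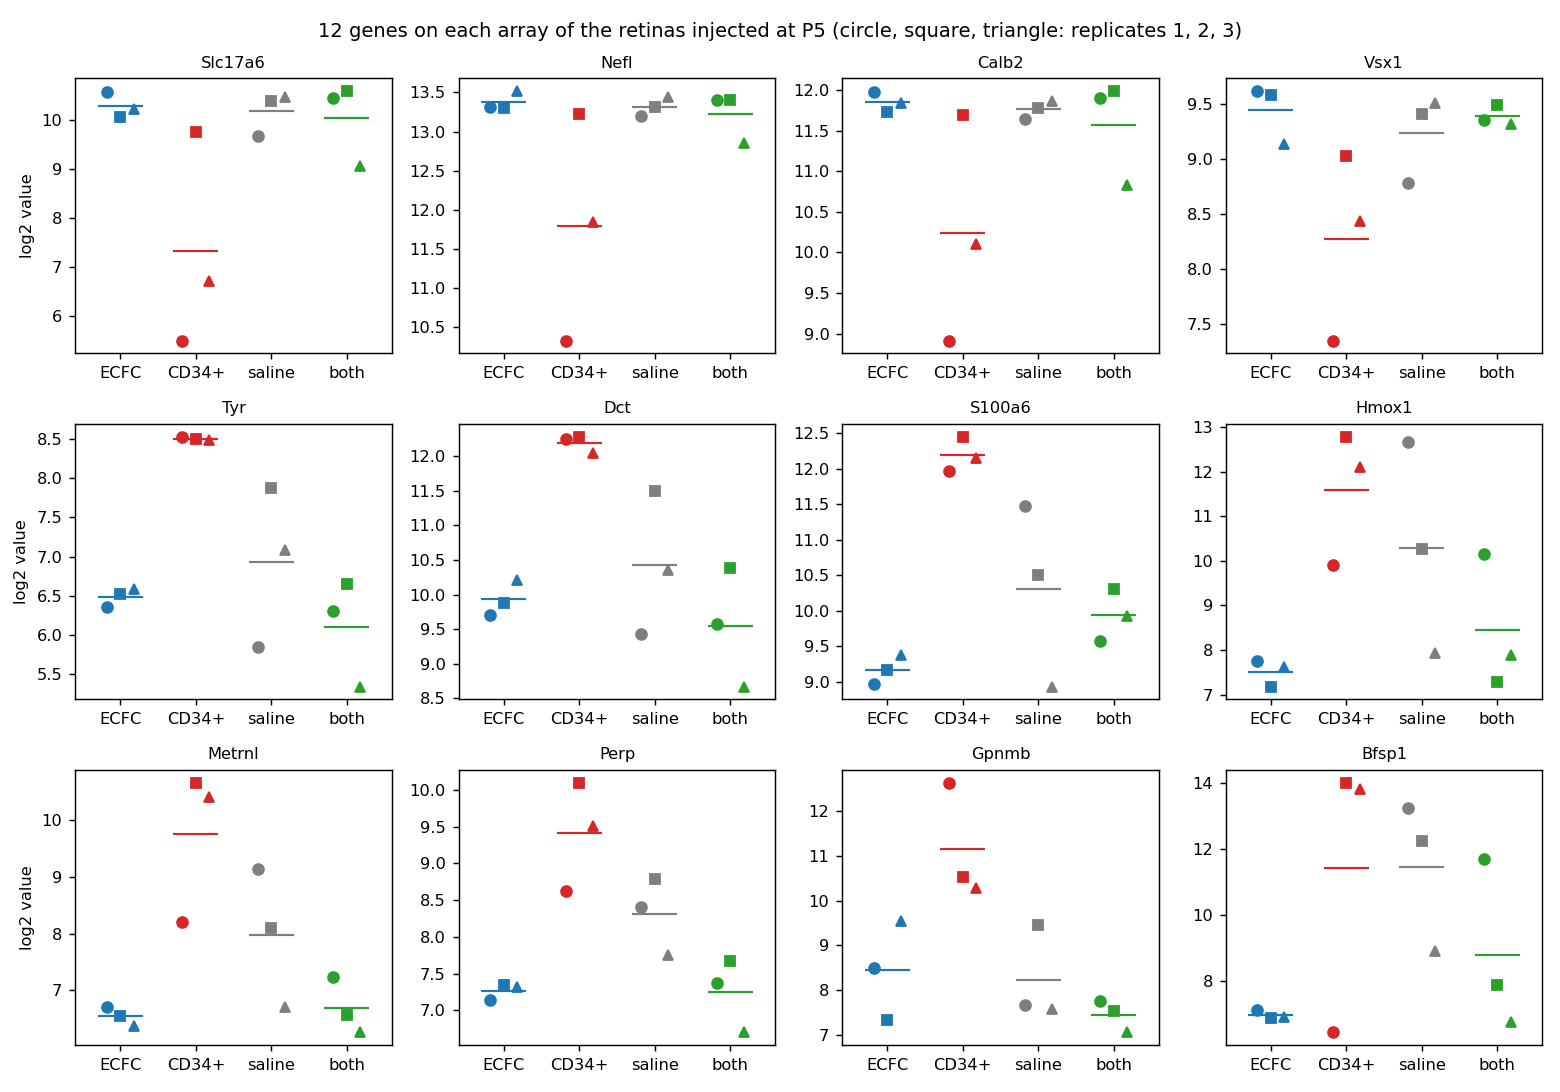
Log2 values of single genes on every array of the retinas injected at P5, by treatment, with the group mean as a line and a y range for each panel. Tyr and Dct have tight CD34+ values (8.49 to 8.53 for Tyr), whereas Slc17a6 spreads from 5.49 to 9.76 within the CD34+ group.

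Some stress and defence genes passed as lower with ECFC. Over all genes 2.79% passed as lower, and 2.84% without CD34+ replicate 1. Of 20 antioxidant and glutathione genes 8 passed as lower and 0 as higher, with a median of -0.42, and 6 passed without CD34+ replicate 1. Gpx1, the glutathione peroxidase of the cytosol, was 11.02, 10.91 and 10.92 with ECFC and 11.50, 11.79 and 11.46 with CD34+ cells. The groups did not overlap, and the difference was -0.64 ± 0.12 (adjusted p = 0.0038). Gstm1, a glutathione transferase, differed by -1.04 ± 0.22, and Nqo1, a quinone reductase, was 7.59, 7.63 and 7.88 against 8.73, 8.22 and 8.46, a difference of -0.77 ± 0.18 (adjusted p = 0.011).

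Of 17 genes of the p53 response and apoptosis 3 passed as lower and 0 as higher, against 2.79% and 4.28% of all genes. The list median was -0.20, and without CD34+ replicate 1 it was -0.02 with 3 passing. Perp, a membrane protein induced by p53, was 7.14, 7.35 and 7.32 with ECFC and 8.62, 10.10 and 9.51 with CD34+ cells, a difference of -2.14 ± 0.28 (adjusted p = 0.00052). Fas, a death receptor, was 4.44, 4.29 and 4.66 against 5.17, 5.88 and 6.16, a difference of -1.28 ± 0.19 (adjusted p = 0.00097). The groups did not overlap for either gene. Ccng1, cyclin G1, differed by -0.53 ± 0.13. Of 20 genes of the unfolded protein and integrated stress response 3 passed as lower: Phgdh, the first enzyme of serine synthesis (-1.26 ± 0.26), Ppp1r15a, which ends the stress block on translation (-1.35 ± 0.30), and Chac1, which degrades glutathione (-0.77 ± 0.22). The median of the 20 was -0.14. Without CD34+ replicate 1, 2 passed and the median was -0.0. Of 27 HIF targets and glycolysis genes 4 passed as lower and 0 as higher, with a median of -0.13. When CD34+ replicate 1 was left out, 2 passed and the median was -0.01. The 4 that passed with all arrays include Hmox1, already given and also on the antioxidant list. The others are P4ha1 and P4ha2, collagen prolyl hydroxylases (-0.66 ± 0.14 and -0.63 ± 0.19), and Car12, a carbonic anhydrase (-1.64 ± 0.46).

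The shares of all genes were 2.79% lower and 4.28% higher, or 2.84% and 1.46% without CD34+ replicate 1. Among genes of reactive gliosis, the injury response of Müller cells and astrocytes, 4 of 22 passed as lower and 0 as higher, with a median of -0.92. Leaving out CD34+ replicate 1, 2 passed with a median of -0.40, and without ECFC replicate 3, 1 passed. The list mean was 8.46, 8.66 and 8.92 with ECFC and 10.64, 8.78 and 9.97 with CD34+ cells, with CD34+ replicate 2 inside the ECFC range. The genes that passed were S100a6, the metallothioneins Mt1 (-0.86 ± 0.26) and Mt2 (-1.45 ± 0.44), which bind zinc and copper, and Hspb1, a small heat shock protein (-2.84 ± 0.84), whose values overlapped between the groups. Gfap, the filament protein of reactive glia, was 9.05, 10.32 and 10.05 with ECFC and 11.76, 8.69 and 10.95 with CD34+ cells and did not pass (adjusted p = 0.76). Of 19 Müller glia genes 1 passed, Clu, clusterin, a secreted chaperone, with a difference of -0.36 ± 0.11. In that list 0 passed as lower and 1 as higher without CD34+ replicate 1.

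Over all genes 4.28% passed as higher and 2.79% as lower. Those shares were 1.46% and 2.84% without CD34+ replicate 1, and 4.28% and 2.57% without ECFC replicate 3. Of 23 microglia and macrophage genes 0 passed, although 21 differences were negative and the median was -0.49. The list mean was 7.94, 7.78 and 8.65 with ECFC and 9.85, 7.58 and 8.32 with CD34+ cells. CD34+ replicate 1 was far above the other arrays, and without it the median was 0.17. Without ECFC replicate 3, 1 of the 23 passed as lower. Csf1r, the growth factor receptor of microglia, was 10.54, 10.33 and 11.05 against 12.15, 10.52 and 11.07 and did not pass (adjusted p = 0.30). Of 23 lysosome and phagocytosis genes 2 passed as lower. Gpnmb, a glycoprotein of phagocytes that pigment cells also make, was 8.5, 7.33 and 9.55 with ECFC and 12.63, 10.52 and 10.28 with CD34+ cells, a difference of -2.68 ± 0.53 (adjusted p = 0.0043). Lipa, the lysosomal lipase, differed by -0.57 ± 0.16. Of the 23, 1 passed without CD34+ replicate 1, and without ECFC replicate 3, 4. Of 15 complement genes 2 passed as lower, with a median of -0.42, and without CD34+ replicate 1, 0 passed and the median was 0.04. Of 30 interferon and antigen presentation genes 1 passed, Ifit2, higher by 0.56 ± 0.17, with a list median of 0.11. That is no more than the share of all genes that passed as higher. ECFC replicate 3 was high in that list, at 9.05 against 7.41 and 7.72 on the other ECFC arrays. Without it 0 passed as higher and 3 as lower, and the median was -0.35. Without CD34+ replicate 1 the list had 0 that passed. Of 22 chemokine and cytokine genes 1 passed, with a list median of -0.05. It was Cx3cl1, the neuronal chemokine read by microglia, higher with ECFC by 0.93 ± 0.20. Of 14 neutrophil genes 1 passed, Mmp9, a matrix protease, higher with ECFC by 0.99 ± 0.22. In that list 10 of 14 differences were negative, and the median was -0.03. The Mmp9 call was lost without CD34+ replicate 1 (0.81, adjusted p = 0.056).

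**Figure D4:**
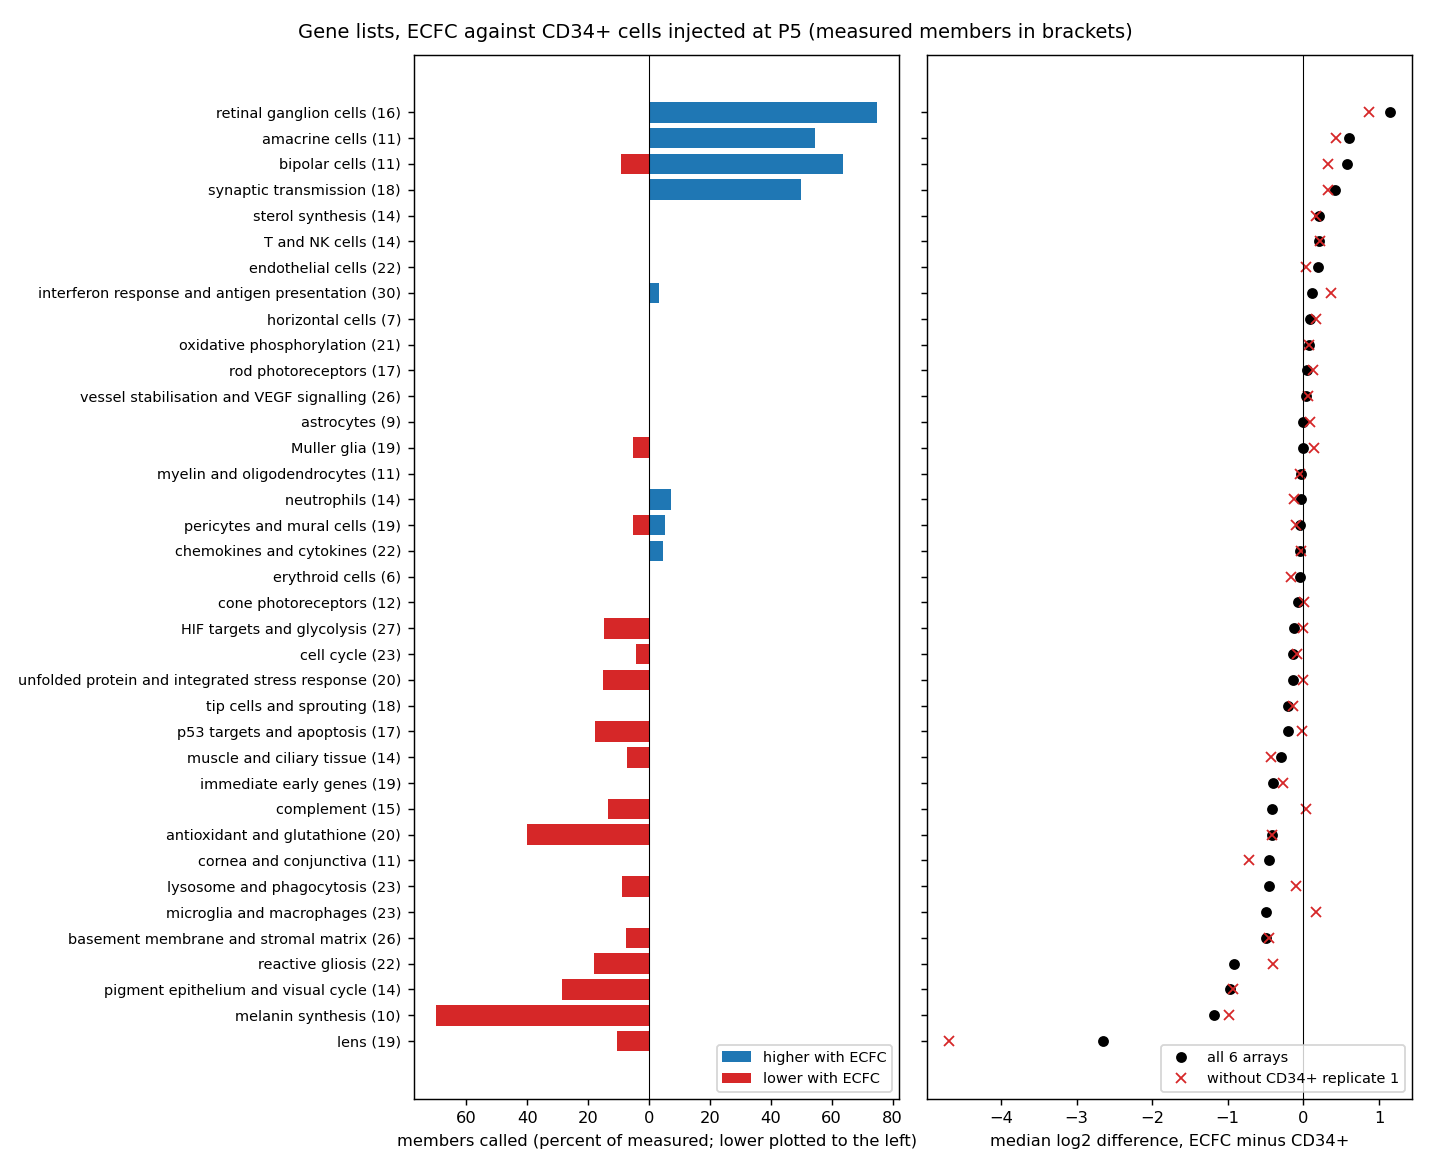
Bars give, for each gene list, the share of measured members that passed as higher (right, blue) or lower (left, red) with ECFC in the 30-array fit, in percent, and the right panel gives the median log2 difference with all 6 arrays (dots) and without CD34+ replicate 1 (crosses). Ganglion cell genes have the largest share on the higher side (12 of 16) and melanin genes the largest share on the lower side (7 of 10).

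The vessel genes the study is about gave few differences. Of 22 endothelial genes, 18 tip cell and sprouting genes, and 26 genes of vessel stabilisation and VEGF signalling, 0 passed, with medians of 0.19, -0.20 and 0.04. Among tip cell genes 1 passed as lower without CD34+ replicate 1, and without ECFC replicate 3, 1 gene of the VEGF list passed as higher. Over all genes 2.84% and 4.28% did so. Vegfa, the main hypoxia-driven growth factor of vessels, was 10.02, 10.01 and 9.85 with ECFC and 10.74, 9.76 and 10 with CD34+ cells, a difference of -0.20 ± 0.18 (adjusted p = 0.66). Pecam1, the adhesion protein of endothelium, was 8.26, 8.31 and 7.88 against 7.44, 8.35 and 7.93 and did not pass. Cldn5, the tight junction protein of the blood-retina barrier, was 10.57, 10.53 and 10.40 against 9.24, 10.85 and 9.92 and did not pass (adjusted p = 0.28).

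Of 19 pericyte and mural cell genes 1 passed as higher and 1 as lower, and without CD34+ replicate 1, 0 and 2. Over all genes 4.28% passed as higher and 2.79% as lower, and without that array 1.46% and 2.84%. Acta2, smooth muscle actin, was 8.76, 8.36 and 9.16 with ECFC and 10.25, 11.51 and 10.90 with CD34+ cells, a difference of -2.12 ± 0.48 (adjusted p = 0.0086). Rgs4, a G protein regulator that neurons also make, was 10.83, 10.55 and 10.72 against 7.31, 10.64 and 8.95, a difference of 1.74 ± 0.43 (adjusted p = 0.013), with CD34+ replicate 2 inside the ECFC range. The pericyte genes fixed for naming did not pass: Pdgfrb, the receptor that holds pericytes on vessels (0.27 ± 0.17), Rgs5 (0.15 ± 0.16) and Cspg4, coding NG2 (-0.01 ± 0.18). Of 26 matrix genes 2 passed as lower, Col1a1, the fibrillar collagen chain (-1.94 ± 0.58), and Dcn, decorin (-1.64 ± 0.50), and 25 of 26 differences were negative. There were 5 that passed as lower without CD34+ replicate 1, and without ECFC replicate 3, 7, against 2.84% and 2.57% of all genes.

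The saline and combination groups at P5 were set beside both cell groups. For the 877 genes that passed, the saline mean lay nearer to ECFC than to CD34+ cells in 800, or 91.2%, against 62.8% of all genes, and the combination mean lay nearer to ECFC in 862, or 98.3%, against 70.5%. These shares compare means and carry no test. The 877 genes were selected on the difference between the cell groups, and the CD34+ group had the widest spread. That selection can by itself place other groups nearer to ECFC. The shares were not taken again without CD34+ replicate 1. The median of the ganglion cell list was 0.04 for ECFC minus saline and -1.08 for CD34+ cells minus saline, both against the same saline arrays. For melanin genes the medians were -0.36 and 1.06, and for lens genes -3.22 and -0.75.

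After injection at P12 the same comparison gave no calls. With limma 0 of 12393 genes passed between ECFC and CD34+ cells at P12, 464 were at an unadjusted p under 0.05, and the median ganglion cell difference was -0.10. Over the 877 genes the median size of the difference was 0.72 at P5, where they were selected, and 0.09 at P12, and the sign was the same in 54.0%, against 50.5% of all genes. The share was 42.7% of the 531 genes higher with ECFC and 71.4% of the 346 lower. Over all genes the median difference at P12 was -0.03. Negative signs were thus the commoner ones at P12, and the pooled share of all genes is not the base for either direction. The mean of the hybridisation control probe sets was 13.23 to 13.65 on the 6 P12 arrays and 11.86 to 12.96 on the 6 P5 arrays. Injection day and this array difference cannot be told apart here. The difference between the days was tested directly, and 3 genes passed (0.0242%), with 1550 at an unadjusted p under 0.05. Chrnb2, a nicotinic receptor subunit, was 7.10, 6.95 and 7.20 with ECFC and 6.25, 6.35 and 6.18 with CD34+ cells at P5. Its difference was 0.82 ± 0.12 at P5 and -0.28 ± 0.12 at P12, apart by 1.10 ± 0.18 (adjusted p = 0.025). Oprm1, the mu opioid receptor, was 6.41, 6.40 and 6.49 against 5.33, 5.69 and 5.50 at P5, and the days differed by 1.14 ± 0.19 (adjusted p = 0.030). Ankrd6, a protein of Wnt signalling, was 9.79, 9.76 and 9.59 against 8.39, 9.09 and 8.90, and the days differed by 1.04 ± 0.19 (adjusted p = 0.042). Leaving out 1 array changed this count to between 0 and 442, the highest without P5 CD34+ replicate 2, and 183 passed without P5 CD34+ replicate 1. With the hybridisation controls as a covariate 70 genes passed between the days. Slc17a6, with 2.96 at P5 and -0.11 ± 0.59 at P12, did not pass the test between days (adjusted p = 0.11), nor did Hmox1 (adjusted p = 0.33).

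**Figure D5:**
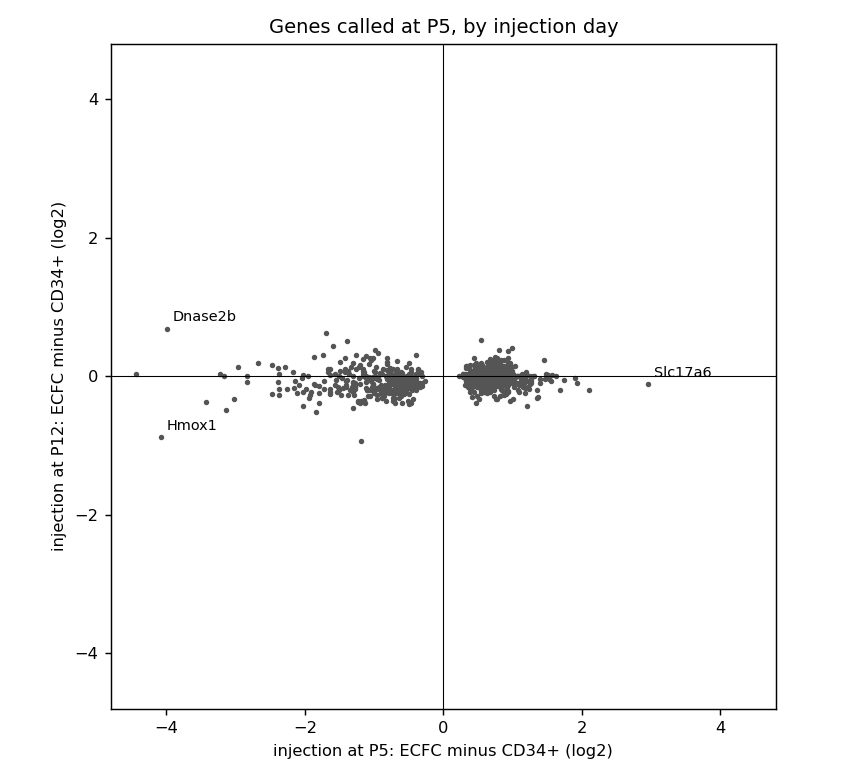
Each point is 1 of the 877 genes that passed at P5, with its ECFC minus CD34+ difference (log2) after injection at P5 on the x axis and after injection at P12 on the y axis. The points spread along the x axis and stay near 0 on the y axis, and the empty middle comes from the selection at P5.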

How the data were processed

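Total RNA of 30 mouse retinas, 3 in each of 10 groups, was amplified, biotin-labelled and hybridised to 1-colour arrays, per the labels' protocols. The deposited log2 values, 1 per probe set and array, were made by the authors with Partek, per the submitters' processing notes. No version is named. The method of background correction and normalization is not given in the sources used here. No further scaling was applied. The 22690 probe sets comprised 64 controls, 20380 with a single gene symbol, 691 with more than 1, and 1555 without any. The probe set with the highest mean was kept for each symbol, leaving 12393 genes. Arrays give no counts, so their number limits precision.

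The contrasts were fitted in R 4.3.3 by limma 3.58.1, with 1 mean per group over 30 arrays (20 residual degrees of freedom), two-sided, with Benjamini-Hochberg adjustment over 12393 genes and a threshold of 0.05. An exact permutation test of 3 against 3 arrays cannot go below p = 0.1. The fit was tested on simulated data. Its false calls stayed under the limit set for them when all groups varied alike, but were over that limit when groups kept their own spread, so the main count can hold too many genes. Both P5 cell groups vary more than most, so counts from 6 and 12 arrays stand beside the main count. Replicates are separate pups, and 0 pairs of arrays were identical.

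The comparison, the 38 gene lists (692 genes, 606 measured) and the naming rule were chosen with earlier results of these data known. Lists are described by counts and medians, without a test. Genes were named by this rule: the 8 largest differences in each direction among genes that passed without overlap between groups, up to 4 members per list by smallest p, up to 5 per direction in the injection-day test, and 17 fixed genes. The text gives part of them. Other members are named after their values were seen (Trpm1, Tyrp1, Mc1r, Oca2 and the genes of the smaller fits). Promoter sequences are from RefSeq (GRCm38.p6), and protein sequences were not used here. Alternatives were other scalings, filters, eBayes settings, covariates, a block for replicate number, fewer groups, and each array left out. Covariates for melanin and microglia, the 12-array fit and the fit without both outlying arrays were chosen after seeing the data.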

Additional observations from a re-analysis of the deposited data

Results flagged for a closer look

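In 3 genes the ECFC against CD34+ difference after injection at P5 differed from that after injection at P12, by limma's test of the difference itself. Chrnb2 differed between the days by 1.10, Oprm1 by 1.14 and Ankrd6 by 1.04 on the log2 scale. All 3 were higher with ECFC than with CD34+ cells on every array at P5. Groups of 3 are too small for the test for a single outlying array, so none was run.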

How the results depend on the processing

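The count of 877 genes changed with the arrays fitted and with the covariate. With only the groups compared 3 genes passed, with lens genes also left out 3, with the 12 arrays of the P5 groups 4, and with the melanin mean as a covariate 1, while array weights gave 2127 and all probe sets 1487. It was 580 without both CD34+ replicate 1 and ECFC replicate 3, and leaving out 1 array gave 391 to 1239. It moved by over 1.5 times without ECFC replicate 1 (391), ECFC replicate 2 (488) and CD34+ replicate 1 (533). Without CD34+ replicate 1 the share higher with ECFC was 34.0%, against 60.5%. Quantile normalization gave 1029, median centring 1026, and the lens mean as a covariate 1214. For the difference between injection days, 3 in the reported fit, quantile normalization gave 8, median centring 9, all probe sets 5, dim genes left out 6, trend and robust settings 9, array weights 3293, the lens covariate 309, the hybridisation control covariate 70 and the Xist covariate 9, and leaving out 1 array gave 0 to 442. That count was 0 without P5 ECFC replicate 1, P12 ECFC replicate 2 or P12 CD34+ replicates 1 or 2, 1 without P5 ECFC replicate 2 or P12 ECFC replicate 3, 23 without P5 ECFC replicate 3, and 183, 442 and 7 without P5 CD34+ replicates 1, 2 and 3. The cause was not tested. Of 175 named genes 1 reversed: Cryaa was 1.75 with the lens mean as a covariate, a mean that holds Cryaa itself. Residuals of equally numbered P5 arrays correlated at -0.032, -0.051 and 0.272, and those of P12 arrays at -0.378, -0.064 and 0.05. With 3 arrays a group these values cannot exclude a pairing, and the arrays were fitted as unpaired. With the replicate block 959 genes passed in the main comparison and 16 between days.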
